A study of Mus musculus with 9 samples.

Results

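Keratin and epithelial injury genes were followed in whole lung RNA of 9 mice. The set was the 10 genes *Krt7*, *Krt8*, *Krt18*, *Krt19*, *Krt5*, *Krt14*, *Krt15*, *Krt17*, *Sprr1a* and *Trp63*, taken by symbol from a table of 34638 genes, and each symbol matched 1 entry. All mice were wild-type C57BL/6 and formed 3 groups of 3. Control mice received PBS. IL-33 mice received 0.5 µg recombinant mouse IL-33 into the trachea on days 0, 1, 2 and 3. IL-33+LM8 mice received the same IL-33 and, before it, an intraperitoneal dose of 10 mg/kg LM8, an inhibitor of MyD88, the adaptor protein through which the IL-33 receptor signals. The methods describe control and IL-33 mice as females of 6 to 8 weeks whose lungs were taken on day 4; sex, age and day of sampling of the IL-33+LM8 mice are not given in the sources used here. None of the 9 mice received LM8 without IL-33, and all values come from whole lung, so that fewer epithelial cells and less RNA per cell cannot be told apart.

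Keratins are the intermediate filament proteins of epithelial cells and are built as pairs of an acidic type I and a basic type II chain. Simple epithelia such as the alveolar and airway lining use *Krt8* and *Krt7* (type II) with *Krt18* and *Krt19* (type I), whereas basal cells, the progenitors of the airway epithelium, use *Krt5* (type II) with *Krt14*, *Krt15* and *Krt17* (type I) under the transcription factor p63, encoded by *Trp63*. *Sprr1a* encodes a small proline-rich protein that transglutaminases cross-link into the cornified envelope of squamous cells and is known as an injury-induced gene. A rise of *Krt8* marks transitional alveolar cells after lung injury, and basal-type keratins mark airway-derived progenitors in severe injury.

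Between 53877663 and 90607218 reads were counted on genes per mouse. FPKM, which divides a count by gene length and sequencing depth, was at least 4879 for *Sftpc*, 8229 for *Scgb1a1* and 439 for *Ager* in every mouse, the defining genes of alveolar type 2, club and alveolar type 1 cells. Counts were compared with edgeR's quasi-likelihood test over genes with a mean of at least 0.5 FPKM in all 9 mice, and a gene was taken to rise or fall at a Benjamini-Hochberg adjusted p under 0.05. Log2 fold changes are given with their standard error (SE). Of the 10 genes, 6 passed this filter. *Krt5*, *Krt14*, *Krt17* and *Trp63* did not and were read from the same test without the filter. Leukocyte genes moved with the groups, since the summed FPKM of *Ptprc*, *Lcp1*, *Coro1a*, *Laptm5* and *Cd52* was 95.6 to 107 in control, 404 to 428 in IL-33 and 267 to 279 in IL-33+LM8 mice; their part in the results below was not tested.

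In IL-33 compared with control mice, *Krt18* and *Krt15* rose and *Krt7* and *Krt19* fell, and *Krt8* and *Sprr1a* did not pass the test. These were 4 of 6 tested genes, where 54.6% of all genes tested passed (27.4% higher and 27.2% lower). In mice given LM8 and IL-33 compared with IL-33 alone, *Krt8* and *Krt19* fell and the other 4 tested genes did not pass, where 26.5% of all genes passed (12.6% higher and 13.9% lower). In IL-33+LM8 compared with control mice, *Krt18* rose and *Krt7* and *Krt19* fell, where 29.7% of all genes passed (16.3% higher and 13.4% lower). These 3 comparisons share mice and are not independent. When a change of at least 2-fold was also required, *Krt15* with IL-33 was the 1 gene left by edgeR (17.0% of all genes tested passed both limits). Neither comparison with LM8 then left a member by edgeR, DESeq2 or limma, where 5.39% of all genes passed the adjusted p and 2-fold limits against IL-33 and 7.33% against control. The members' count was also 0 in each at an unadjusted p under 0.05 with at least 2-fold. Of the 6 tested genes, 5 had groups that did not overlap in FPKM in IL-33 against control (63.4% of all genes tested), 3 in IL-33+LM8 against IL-33 (43.2%) and 4 in IL-33+LM8 against control (47.3%). For a single gene whose groups do not overlap, the two-sided exact permutation test gives p = 0.1, the smallest that 3 mice against 3 allow.

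The stretches before the start sites of the genes are shown first, since the keratin pair *Krt8* and *Krt18* is compared below and *Sprr1a* is set beside its relatives. RefSeq promoters (GRCm38.p6) were matched by symbol for 6 of the 10 genes; *Krt19*, *Krt15*, *Krt17* and *Trp63* had no entry. The 250 bases before the start are given 5′ to 3′ on the strand of the gene, at chr15:101412153-101412402 (plus strand) for *Krt7*, chr15:102004343-102004592 (minus strand) for *Krt8*, chr15:102027966-102028215 (plus strand) for *Krt18* and chr3:92485882-92486131 (minus strand) for *Sprr1a*. Capitals mark matches to any of 5 motifs searched on both strands.
Krt7: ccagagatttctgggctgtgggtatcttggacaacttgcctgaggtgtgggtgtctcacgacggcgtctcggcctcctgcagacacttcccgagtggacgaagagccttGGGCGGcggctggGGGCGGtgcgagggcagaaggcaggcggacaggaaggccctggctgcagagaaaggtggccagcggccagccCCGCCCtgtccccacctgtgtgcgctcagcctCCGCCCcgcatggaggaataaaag
Krt8: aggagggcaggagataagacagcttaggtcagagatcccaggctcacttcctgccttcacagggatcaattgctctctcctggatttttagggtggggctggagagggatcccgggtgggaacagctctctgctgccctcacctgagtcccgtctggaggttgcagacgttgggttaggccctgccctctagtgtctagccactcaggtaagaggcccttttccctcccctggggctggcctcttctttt
Krt18: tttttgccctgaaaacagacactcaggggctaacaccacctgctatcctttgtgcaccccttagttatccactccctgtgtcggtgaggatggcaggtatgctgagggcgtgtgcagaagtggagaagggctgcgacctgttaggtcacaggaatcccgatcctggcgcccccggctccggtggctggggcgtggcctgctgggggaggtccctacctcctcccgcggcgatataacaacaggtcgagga
Sprr1a: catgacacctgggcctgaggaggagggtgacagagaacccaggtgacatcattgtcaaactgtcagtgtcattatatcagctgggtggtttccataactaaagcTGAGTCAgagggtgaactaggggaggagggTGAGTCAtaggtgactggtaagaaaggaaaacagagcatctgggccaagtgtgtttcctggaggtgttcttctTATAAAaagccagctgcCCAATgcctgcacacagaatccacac

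The motifs were the TATA box (TATAAA, in 12.4% of 32851 promoter entries of the same length), the AP-1 site (TGANTCA, 6.75%), the STAT6 site (TTC, then any 4 bases, then GAA, 5.85%), the GC box (GGGCGG, 32.7%) and the CCAAT box (CCAAT, 33.8%). *Krt7* held 4 GC boxes, at 141, 128, 56 and 24 bases before the start. *Sprr1a* held 2 AP-1 sites, at 146 and 116 bases, a TATA box at 43 and a CCAAT box at 26. None of the matches overlapped another. These windows of *Krt8*, *Krt18*, *Krt5* and *Krt14* held no match to any of the 5 motifs, and a match is a description of letters only.

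**Figure D1:**
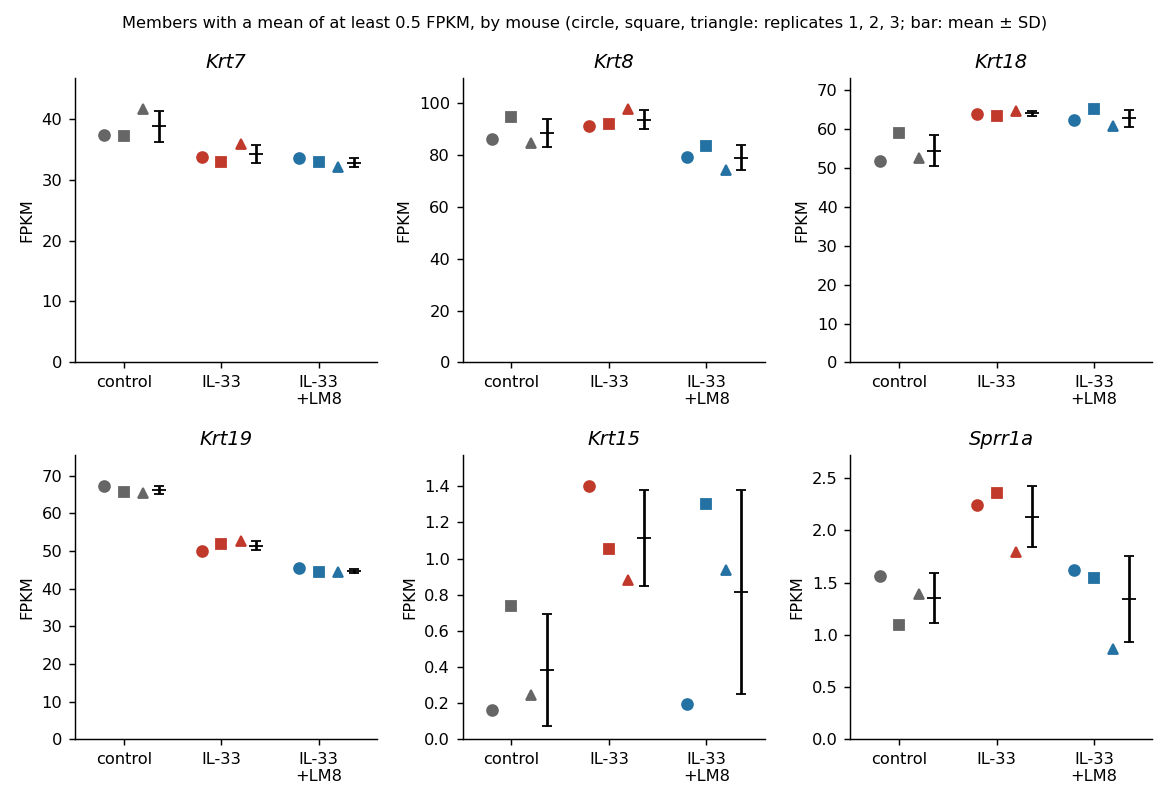
FPKM of *Krt7*, *Krt8*, *Krt18*, *Krt19*, *Krt15* and *Sprr1a* (y axes, each from 0) in control, IL-33 and IL-33+LM8 mice (x axes). Each symbol is a mouse and the black bar is the mean ± SD of 3 mice. *Krt19* steps down from 65.4 to 67.3 in control over 50.0 to 52.6 in IL-33 to 44.4 to 45.4 in IL-33+LM8 mice, while *Krt15* spreads widely within groups.

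*Krt8* (ENSMUSG00000049382), the main type II keratin of simple epithelia, was the most abundant keratin of the lung per length. It was at 86.2, 94.7 and 84.7 FPKM in control replicates 1, 2 and 3, at 91.2, 92.0 and 97.8 FPKM in IL-33 mice and at 79.3, 83.6 and 74.1 FPKM in IL-33+LM8 mice. The IL-33 mice overlapped the controls, and every IL-33+LM8 mouse was below every mouse of both other groups. With IL-33 the log2 fold change was 0.081 (SE 0.060, adjusted p = 0.296). With LM8 added to IL-33 it fell, with a log2 fold change of -0.25 (SE 0.06, adjusted p = 0.0277), while against control it was -0.15 (SE 0.07, adjusted p = 0.162). With the replicate number as a block, a pairing that the labels do not give, the latter passed (-0.15, adjusted p = 0.0354). The fall against IL-33 kept its direction with each mouse left out (-0.30 to -0.19), but it passed only without IL-33+LM8 replicate 2 (-0.30). The adjusted p was 0.0564 without IL-33 replicate 1 (-0.26), 0.0650 without IL-33 replicate 2 (-0.26), 0.110 without IL-33 replicate 3 (-0.20), 0.0597 without IL-33+LM8 replicate 1 (-0.24) and 0.101 without IL-33+LM8 replicate 3 (-0.19).

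*Krt18* (ENSMUSG00000023043), the type I partner of *Krt8*, lies 23.7 kb from it in the coordinates of the table and is the type I keratin found within the type II cluster. It was at 51.8, 59.1 and 52.4 FPKM in control, 64.0, 63.3 and 64.8 FPKM in IL-33 and 62.3, 65.2 and 60.7 FPKM in IL-33+LM8 mice. All mice given IL-33 were above all controls, and the groups with and without LM8 overlapped. *Krt18* rose with IL-33 by a log2 fold change of 0.23 (SE 0.06, adjusted p = 0.0130), and passed with each mouse left out (0.20 to 0.29). With LM8 added to IL-33 the log2 fold change was -0.029 (95% interval -0.15 to 0.091, adjusted p = 0.730). Against control it remained higher by 0.22 (SE 0.07, adjusted p = 0.0482), although without control replicate 1 (0.19, adjusted p = 0.127), control replicate 3 (0.19, 0.145), IL-33+LM8 replicate 1 (0.23, 0.0748), replicate 2 (0.19, 0.124) or replicate 3 (0.24, 0.0943) it did not pass.

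The levels of the pair were also set against each other within each mouse. The ratio of *Krt8* to *Krt18* FPKM was 1.66, 1.60 and 1.61 in control mice, 1.43, 1.45 and 1.51 in IL-33 mice and 1.27, 1.28 and 1.22 in IL-33+LM8 mice. The ranges of the 3 groups did not overlap, in the order control, IL-33, IL-33+LM8. This ratio does not depend on library size, and it was formed after the values were seen, so it is a description with no test. The ratio of *Krt8* to *Krt19* went the other way with IL-33, from 1.28 to 1.44 in control to 1.78 to 1.86 in IL-33 mice, and was 1.67 to 1.88 in IL-33+LM8 mice, overlapping those with IL-33 alone.

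**Figure D2:**
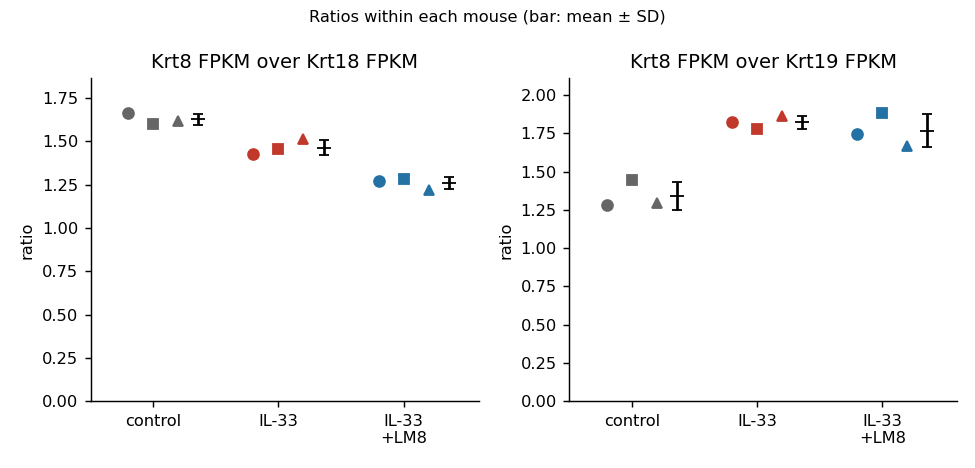
Ratio of *Krt8* to *Krt18* FPKM and of *Krt8* to *Krt19* FPKM (y axes, from 0) in each mouse by group (x axes), with mean ± SD of 3 mice in black. The first ratio was 1.63 ± 0.0322 in control, 1.46 ± 0.0434 in IL-33 and 1.26 ± 0.0332 in IL-33+LM8 mice; the second was 1.34 ± 0.0899, 1.82 ± 0.0414 and 1.77 ± 0.108.

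*Krt19* (ENSMUSG00000020911), the smallest keratin and a type I chain of airway and alveolar epithelium, changed most among the simple keratins in both comparisons with control. It was at 67.3, 65.6 and 65.4 FPKM in control, 50.0, 51.8 and 52.6 FPKM in IL-33 and 45.4, 44.4 and 44.4 FPKM in IL-33+LM8 mice. No group overlapped another. *Krt19* fell with IL-33 by a log2 fold change of -0.36 (SE 0.05, adjusted p = 4.5e-04), and passed with each mouse left out (-0.38 to -0.32). It was lower again with LM8 than with IL-33 alone, at -0.20 (SE 0.05, adjusted p = 0.0198), and -0.55 against control (SE 0.05, adjusted p = 3.8e-04; -0.56 to -0.52 with each mouse left out). The fall with LM8 did not pass without IL-33 replicate 2 (-0.20, adjusted p = 0.0596), IL-33 replicate 3 (-0.17, 0.0853) or IL-33+LM8 replicate 3 (-0.18, 0.0978).

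*Krt7* (ENSMUSG00000023039), the second type II keratin of simple epithelia, was at 37.3, 37.2 and 41.6 FPKM in control, 33.8, 32.9 and 35.9 FPKM in IL-33 and 33.5, 32.8 and 32.0 FPKM in IL-33+LM8 mice. Both groups given IL-33 lay below the controls and overlapped each other. The log2 fold change was -0.18 with IL-33 (SE 0.06, adjusted p = 0.0406), -0.061 for LM8 against IL-33 (SE 0.055, adjusted p = 0.469) and -0.23 for IL-33+LM8 against control (SE 0.06, adjusted p = 0.0341). The fall with IL-33 was near the threshold, since with a mouse left out it passed only without control replicate 2 (-0.21, adjusted p = 0.0391) and not without control replicate 1 (-0.20, 0.0547), control replicate 3 (-0.13, 0.122) or IL-33 replicate 1 (-0.15, 0.153), replicate 2 (-0.14, 0.170) or replicate 3 (-0.21, 0.0563). With median-of-ratios size factors the adjusted p was 0.0505 (-0.18). The fall against control with LM8 passed with none of the 6 mice left out (-0.25 to -0.18, adjusted p 0.0545 to 0.123). The FPKM of *Krt7* rests on a length of 7.36 kb, computed from its counts, where its longest GENCODE M21 transcript is 4.09 kb, so its rank against the other keratins is uncertain, unlike its changes between mice. *Krt7* and *Krt8* each overlap a gene on the opposite strand, *Gm671* (47 to 135 reads per mouse) and *Gm36026* (5 to 38), and whether counting used strand is not given in the sources used here.

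Summed over the 4 simple keratins, FPKM was 243 to 257 in control, 239 to 251 in IL-33 and 211 to 226 in IL-33+LM8 mice. The simple keratins made up 82.1% to 84.1% of the FPKM of the 35 keratins of the table in control, 88.9% to 89.9% in IL-33 and 83.3% to 84.6% in IL-33+LM8 mice. Their own sum overlapped between control and IL-33 mice. The most abundant keratin outside the set, *Krt80*, had means of 37.5, 18.4 and 29.7 FPKM in control, IL-33 and IL-33+LM8 mice. General epithelial genes, a list of 10 with the adhesion molecules *Epcam* and *Cdh1*, summed to 162 to 173, 156 to 171 and 157 to 161 FPKM in the same order. Of all genes tested, 27.4% rose with IL-33 and 27.2% fell. With IL-33, 2 of the 10 rose, *Epcam* (0.27) and *Spint1*, a protease inhibitor (0.42), 2 fell, *Grhl2*, an epithelial transcription factor (-0.56), and *Rab25*, a GTPase of apical recycling (-0.30), and 6 did not pass, among them *Cdh1* at 66.7 ± 3.59 FPKM in control and 61.0 ± 2.50 FPKM in IL-33 mice (SD, n = 3 each). When counts were scaled to this list in place of library size, *Krt18*, *Krt19* and *Krt15* still passed with IL-33. This scaling used summed reads, in which *Cdh1* weighed most. It had 16026 to 23635 reads per mouse, beside at most 5406 for any other gene of the list. The falls of *Krt7* with IL-33 (-0.13, adjusted p = 0.0937) and with IL-33+LM8 against control (-0.14, 0.145) did not pass, and the falls of *Krt8* (-0.19, adjusted p = 0.0614) and *Krt19* (-0.15, 0.128) with LM8 did not either.

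By list median, genes of single epithelial cell types moved further with IL-33 than any simple keratin (-0.36 to 0.23). Not every gene did so, among them the ciliated cell gene *Foxj1* (-0.033, adjusted p = 0.867) and the alveolar type 2 gene *Lamp3* (-0.13, 0.129). Of all genes tested, 27.2% fell and 27.4% rose with IL-33. The median log2 fold change with IL-33 was -1.93 for 4 club cell genes (3 fell), -0.76 for 5 ciliated cell genes (4 fell), -0.93 for 5 alveolar type 1 genes (4 fell and 1 rose), -0.55 for 5 alveolar type 2 genes (3 fell) and 3.64 for 5 goblet cell genes (all 5 rose), beside -0.0053 over all genes tested. With LM8 against IL-33 alone, 3 club cell, 4 ciliated, 3 alveolar type 1 and 3 alveolar type 2 genes rose. None of these 4 lists had a gene that fell, while *Krt8* and *Krt19* fell. Of the 5 goblet cell genes, 1 rose (*Clca1*, 0.23), 1 fell (*Muc5ac*, -1.04) and 3 did not pass. In that comparison 12.6% of all genes tested rose and 13.9% fell. Mesothelial cells, which cover the lung and also carry simple keratins, varied between lungs: the 7 mesothelial genes summed to 46.7 to 98.0 FPKM in control, 15.6 to 43.4 in IL-33 and 30.6 to 35.8 in IL-33+LM8 mice, and 2 of 4 tested fell with IL-33, *Upk3b* (-1.99) and *Upk1b* (-1.36). The lowest sum, in IL-33 replicate 3, came with the highest *Krt7* and *Krt19* of its group. Among controls neither gene followed the order of the sums. The lowest sum, in replicate 2, came with the lowest *Krt7*, and the highest, in replicate 1, with the highest *Krt19*. The highest *Krt7* and the lowest *Krt19* were both in replicate 3, whose sum of 70.6 FPKM lay between. The part of mesothelium in the falls of *Krt7* and *Krt19* was not tested.

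**Figure D3:**
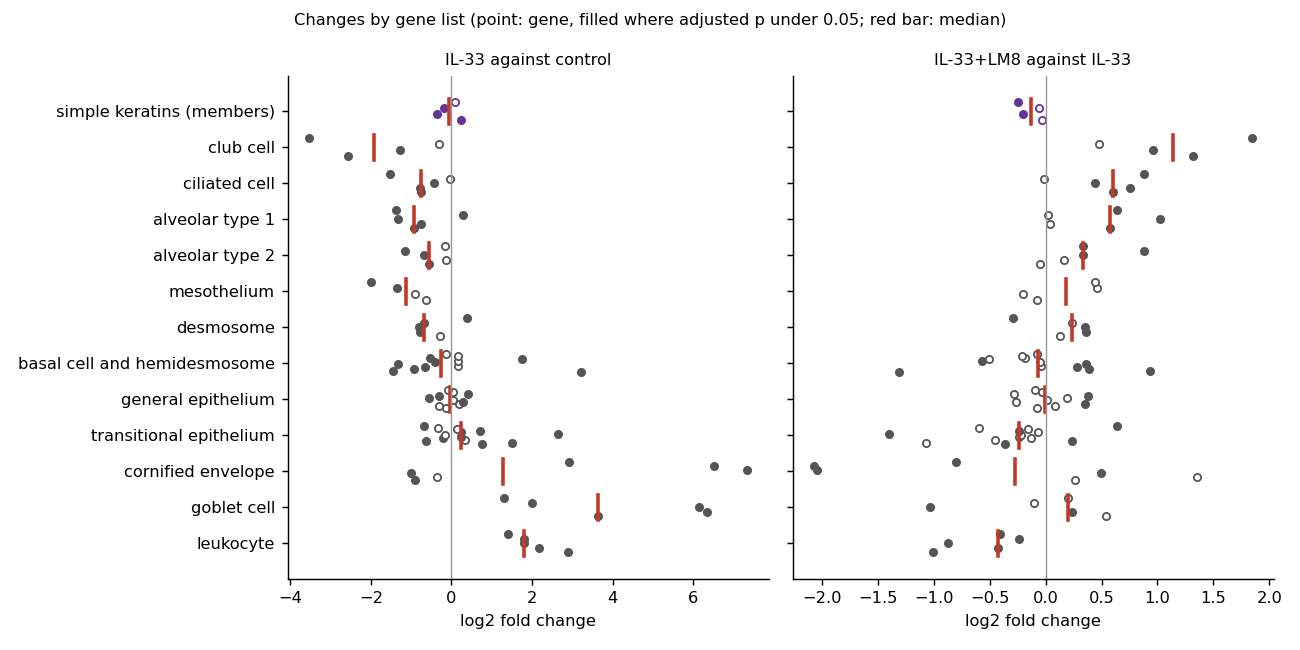
Log2 fold changes (x axes) of the tested genes of each list (y axis) for IL-33 against control (left) and IL-33+LM8 against IL-33 (right). Points are genes, filled where the adjusted p was under 0.05, simple keratins in purple; red bars are medians. With IL-33 the simple keratins lie between -0.36 and 0.23, whereas club cell genes have a median of -1.93 and goblet cell genes of 3.64.

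The basal cell keratins were near the limit of detection. Counts are given for them, and up to 3 reads in a library were taken as not detected, a limit that covers counting error only. *Krt5* (ENSMUSG00000061527), the type II keratin of basal cells, was counted 0, 14 and 0 times in control, 35, 45 and 26 times in IL-33 and 0, 94 and 105 times in IL-33+LM8 mice. The IL-33 mice did not overlap the controls, but IL-33+LM8 replicate 1 was at 0 beside the highest values of all mice in replicates 2 and 3. The fit without the filter gave a log2 fold change of 2.96 with IL-33 (SE 1.37, adjusted p = 0.180), and 0.00355 as adjusted p when control replicate 2 was left out, where both remaining controls are at 0.

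*Krt14* (ENSMUSG00000045545), the usual type I partner of *Krt5*, was counted 22, 23 and 6 times in control, 56, 109 and 27 times in IL-33 and 33, 32 and 28 times in IL-33+LM8 mice. Its log2 fold change without the filter was 1.97 with IL-33 (SE 0.71, adjusted p = 0.0883) and -1.19 for LM8 against IL-33 (SE 0.54, adjusted p = 0.248). *Krt17* (ENSMUSG00000035557), a type I keratin induced in wounded epithelium, had no read in any control mouse and 0, 20 and 22 reads in IL-33 and 0, 42 and 32 reads in IL-33+LM8 mice. The mouse at 0 in the LM8 group was again replicate 1. *Krt17* passed in no comparison with all mice (adjusted p 0.0902 with IL-33 and 0.102 with LM8 added, both against control; in that fit 11.3% of all genes passed for LM8 against IL-33 and 12.4% against control), and no fold change is given for it because the controls are at 0. *Krt14* and *Krt17* are close relatives in sequence, and how reads common to both were counted is not given in the sources used here.

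*Krt15* (ENSMUSG00000054146), a type I keratin of basal cells and the only basal keratin over the filter, was at 0.162, 0.736 and 0.248 FPKM in control (19, 85 and 34 reads), 1.40, 1.05 and 0.882 FPKM in IL-33 (171, 118 and 88 reads) and 0.197, 1.30 and 0.937 FPKM in IL-33+LM8 mice (23, 150 and 156 reads). The IL-33 mice were above the controls, and the IL-33+LM8 mice spanned both groups. *Krt15* rose with IL-33 by a log2 fold change of 1.54 (SE 0.55, adjusted p = 0.0480), near the threshold. Without control replicate 2, the highest control, it was 2.42 (adjusted p = 0.00239). It did not pass without control replicate 1 (1.18, adjusted p = 0.101), control replicate 3 (1.30, 0.116) or IL-33 replicate 1 (1.35, 0.124), replicate 2 (1.58, 0.0892) or replicate 3 (1.69, 0.0741), nor in a fit of all 9 mice (1.54, 0.0840). For LM8 against IL-33 the log2 fold change was -0.44 (95% interval -1.80 to 0.91, adjusted p = 0.627), which leaves the direction undetermined.

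*Trp63* (ENSMUSG00000022510), the regulator of basal cell identity, was counted 14, 44 and 25 times in control, 120, 98 and 118 times in IL-33 and 28, 119 and 150 times in IL-33+LM8 mice. All IL-33 mice were above all controls, while IL-33+LM8 replicate 1 lay among the controls, at 0.0515 FPKM, and replicates 2 and 3 among the IL-33 mice, at 0.214 and 0.186 FPKM. In the fit without the filter *Trp63* rose with IL-33 by a log2 fold change of 2.15 (SE 0.47, adjusted p = 0.0126), where 26.2% of all genes in that fit passed (13.4% higher). It passed with each of the 6 mice left out (1.86 to 2.73, largest adjusted p 0.0472). Against IL-33 the LM8 group gave -0.46 (SE 0.49, adjusted p = 0.622), and against control 1.71 (SE 0.64, adjusted p = 0.143); without IL-33+LM8 replicate 1 the latter was 2.12 (adjusted p = 0.0457).

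**Figure D4:**
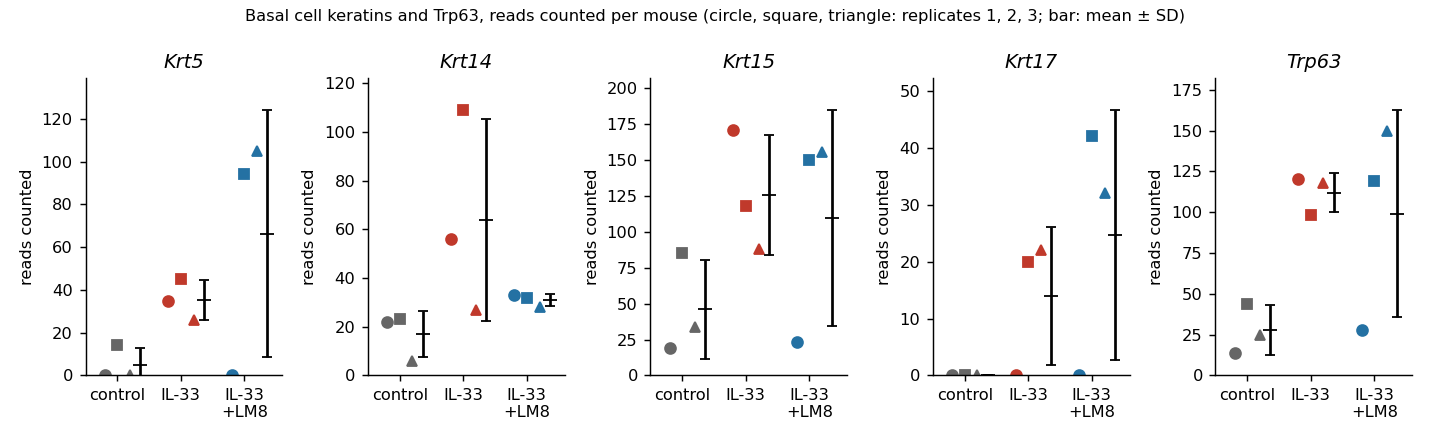
Reads counted on *Krt5*, *Krt14*, *Krt15*, *Krt17* and *Trp63* (y axes, from 0) in each mouse by group (x axes); circles, squares and triangles are replicates 1, 2 and 3, and black bars are mean ± SD of 3 mice. In the IL-33+LM8 group replicate 1 is at 0 for *Krt5* and *Krt17*, at 23 for *Krt15* and at 28 for *Trp63*, and *Krt14* is at 28 to 33 in all 3 mice.

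In IL-33+LM8 replicate 1, where basal counts were low, club cell genes summed to 17820 FPKM against 18623 and 17196 in replicates 2 and 3, and ciliated cell genes to 184 against 182 and 182. Other epithelial genes went either way in that mouse. Among those lowest of the group there, the goblet cell gene *Agr2* was at 11.9 FPKM against 35.5 and 23.1. *Sprr2a1* was at 0.902 against 2.19 and 1.47, and the envelope precursor *Ivl* at 0.445 against 1.19 and 1.01. *Areg* was at 72 reads against 172 and 412, and was lowest by FPKM as well. Among those highest there were the goblet cell genes *Muc5ac* (6.42 FPKM against 6.06 and 5.79) and *Muc5b* (20.4 against 18.1 and 18.5). The club cell gene *Cyp2f2* was also highest there (639 FPKM against 431 and 521). Thymic epithelium also carries *Krt5* and *Krt14*. The 8 thymus list genes in the table summed to 3.70 to 5.57 FPKM in all mice, mostly from *Cd8b1*, a gene of CD8 T cells in general (2.46 to 4.36 FPKM), while *Psmb11*, a gene of thymic cortical epithelium, had 0 to 8 reads and *Rag2* had no read in any mouse given IL-33. The T cell precursor gene *Rag1* was at 159, 4 and 122 reads in control and 0 to 8 reads in the other mice. *Aire*, a gene of thymic epithelium, was at 4, 21 and 11 reads in control, 49 to 67 in IL-33 and 18 to 22 in IL-33+LM8 mice, and in the fit without the filter it rose with IL-33 (adjusted p = 0.0243) and fell with LM8 against IL-33 (adjusted p = 0.0255). The part of thymus in the basal keratin counts was not tested. Over all genes tested, 27.4% rose with IL-33 and 27.2% fell. Of 12 further basal cell and hemidesmosome genes, 2 rose with IL-33 and 6 fell (median -0.27, beside -0.0053 over all genes tested). Those that rose were *Aqp3*, a water and glycerol channel of basal cells, by 3.21 (SE 0.42, adjusted p = 5.7e-04), and *Ngfr*, the low-affinity neurotrophin receptor, by 1.75 (adjusted p = 5.9e-04). *Col17a1*, a hemidesmosome collagen (-1.45), and *Lama3*, a laminin chain under epithelia (-1.33), fell the most. With LM8 against IL-33, *Aqp3* fell by 1.31 on the log2 scale (adjusted p = 9.4e-04), and 4 genes of this list rose, among them *Col17a1* (0.94, adjusted p = 0.00784) and *Lama3* (0.36, adjusted p = 0.0100). In that comparison 12.6% of all genes tested rose. The abundant linker gene *Plec* (18.1 FPKM over all mice) did not pass with IL-33 (log2 fold change 0.17, adjusted p = 0.169).

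*Sprr1a* (ENSMUSG00000050359) was at 1.57, 1.09 and 1.39 FPKM in control, 2.24, 2.35 and 1.80 FPKM in IL-33 and 1.62, 1.54 and 0.865 FPKM in IL-33+LM8 mice, from 57 to 124 reads per mouse. All IL-33 mice were above all mice of both other groups, which overlapped. The log2 fold change of 0.65 with IL-33 missed the threshold (SE 0.25, adjusted p = 0.0564), and it passed among genes with a mean of at least 1 FPKM (0.65, adjusted p = 0.0486) and with limma on log2(FPKM + 1) (0.42, 0.0183). For LM8 against IL-33 it was -0.67 (SE 0.30, adjusted p = 0.152), and against control 0.0042 (95% interval -0.76 to 0.76).

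Of 6 other cornified envelope genes tested, 3 rose with IL-33, all by at least 2-fold, 2 fell and *Ivl* did not pass (-0.36, adjusted p = 0.384). Of all genes tested, 10.8% rose by at least 2-fold and 27.2% fell. *Sprr2a1*, of the same small proline-rich family, was counted 5 to 11 times in control, 1141 to 1217 times in IL-33 and 170 to 425 times in IL-33+LM8 mice, a log2 fold change of 7.33 with IL-33 (SE 0.22, adjusted p = 1.1e-06) and of -2.04 for LM8 against IL-33 (SE 0.30, adjusted p = 0.00239). *Sprr2a2* was counted 12 to 18, 1144 to 1256 and 157 to 434 times (6.51 and -2.07). *Sprr2a3*, under the filter, had no read in control mice, 188 to 236 in IL-33 mice and 39 to 69 in IL-33+LM8 mice, which made it at least 78.1-fold and at least 17.5-fold higher than control against a floor of 3 counts per library. These 3 genes are near-identical copies, so how reads were split between them is uncertain. The rises of *Sprr2a1* and *Sprr2a2* may thus not be separate ones. *Tgm1*, the transglutaminase that cross-links the envelope, rose from 1.08 ± 0.155 to 8.14 ± 0.943 FPKM (SD, n = 3 each; log2 fold change 2.91) and was at 4.67 ± 0.710 FPKM with LM8 (-0.80 against IL-33, adjusted p = 0.00534). The envelope scaffold genes *Ppl* and *Evpl* fell with IL-33, by -1.02 and -0.90, and *Ppl* was higher with LM8 than with IL-33 alone (0.49, adjusted p = 0.0100).

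**Figure D5:**
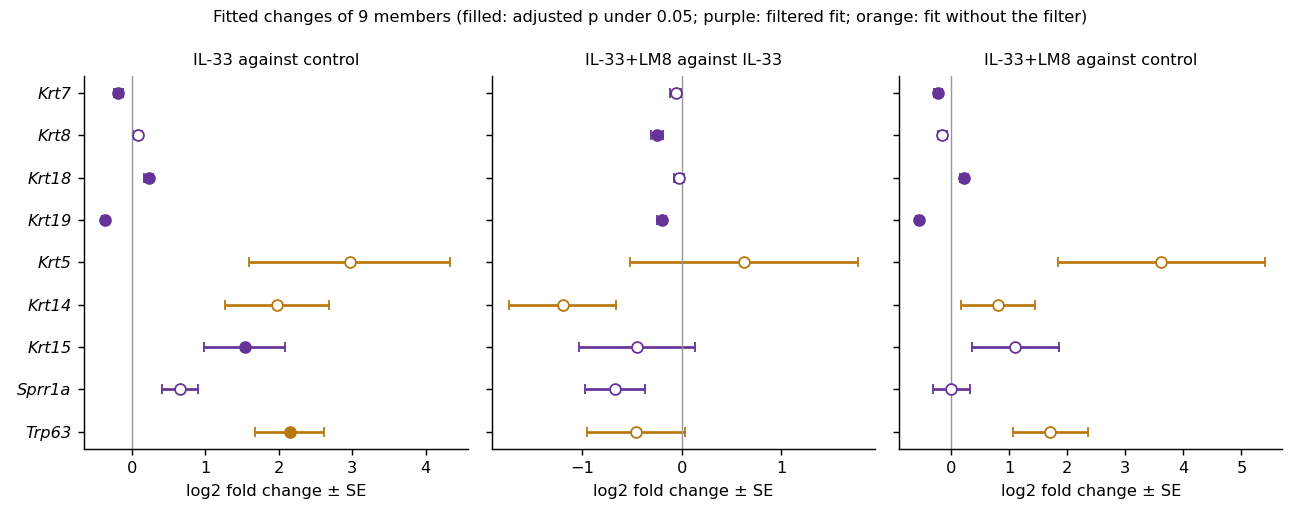
Fitted log2 fold changes with standard errors (x axes, scales differ between panels) of 9 of the 10 genes (y axis) in the 3 comparisons; *Krt17* is left out because its controls are at 0. Filled points have an adjusted p under 0.05; purple marks the filtered fit and orange the fit without the filter. The simple keratins lie between -0.55 and 0.23 with small errors, and *Trp63* is at 2.15 with IL-33.

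Among the other keratins, 27 were in the table and 3 passed the filter; all 3 fell with IL-33, where 27.2% of all genes tested fell. *Krt80*, a type II keratin of many epithelia, was at 41.3, 33.8 and 37.4 FPKM in control, 18.1, 18.4 and 18.8 FPKM in IL-33 and 32.0, 27.3 and 29.7 FPKM in IL-33+LM8 mice, and its 3 groups did not overlap. The log2 fold change was -1.03 with IL-33 (SE 0.08, adjusted p = 4.4e-05) and 0.69 for LM8 against IL-33 (SE 0.06, adjusted p = 3.7e-04). *Krt79*, a type II keratin, fell by 1.25 on the log2 scale with IL-33 and was higher by 1.20 with LM8, both past the test (adjusted p = 6.1e-04 and 0.00132). *Krt23*, a type I keratin, fell by 0.68 (adjusted p = 0.00864) and did not pass with LM8 (0.21, adjusted p = 0.341). With LM8 added to IL-33, *Krt80* and *Krt79* were higher, while *Krt8* and *Krt19* were lower.

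Desmosomes anchor keratin filaments at cell contacts. Of 5 tested desmosome genes, 3 fell and 1 rose with IL-33 (median -0.68), where 27.2% of all genes tested fell and 27.4% rose. *Jup*, which encodes plakoglobin, went from 66.8 ± 4.42 to 38.5 ± 1.23 FPKM (SD, n = 3 each; log2 fold change -0.80, adjusted p = 6.1e-05), and *Dsp*, encoding desmoplakin, which binds keratins directly, fell by 0.78 (adjusted p = 6.2e-05). Both were higher with LM8 than with IL-33 alone, by 0.35 (adjusted p = 0.00771) and 0.36 (adjusted p = 0.0178), and *Pkp3*, a plakophilin, which had risen by 0.38, was lower by 0.29 (log2 fold change -0.29, adjusted p = 0.0347).

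Of all genes tested, 27.4% rose with IL-33, 10.8% by at least 2-fold, and 27.2% fell. Of 13 tested genes known from transitional epithelium after injury, 6 rose and 3 fell with IL-33 (median 0.24), and 2 rose by at least 2-fold. These were *Lgals3*, encoding galectin-3, which macrophages also express, from 36.9 ± 2.36 to 229 ± 7.26 FPKM (log2 fold change 2.63, adjusted p = 6.2e-07), and the EGF receptor ligand *Areg* (1.50, adjusted p = 0.00323). *Anxa1*, encoding annexin A1, rose by 0.75 and the urokinase receptor *Plaur* by 0.71, whereas *Tm4sf1*, a membrane tetraspanin-like protein, fell by 0.69 and the cell cycle inhibitor *Cdkn1a* by 0.64. *Cldn4* (0.33, adjusted p = 0.232) and *Sfn* (0.15, adjusted p = 0.282), which mark these cells together with *Krt8*, did not pass. With LM8 against IL-33, 3 of the 13 fell, *Lgals3* (-1.40), *Anxa1* (-0.37) and *Plaur* (-0.24), and 2 rose, *Tm4sf1* (0.64) and *Cdkn1a* (0.24), each in the direction opposite to IL-33. Over all genes tested in that comparison, 13.9% fell and 12.6% rose.

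Across the 9 mice, the Pearson correlation of log2(FPKM + 1) between the simple keratins was 0.88 for *Krt7* with *Krt19*, 0.16 for *Krt8* with *Krt18* and -0.79 for *Krt18* with *Krt19*. The genes closest to *Krt19* among all genes tested were *Dkk3* (0.995), *Zfp512* (0.988) and *Slit2* (0.986), those closest to *Krt18* were *9130401M01Rik* (0.984), *Psmd13* (0.984) and *Aurkaip1* (0.981), and those closest to *Krt8* were *Tnnt3* (0.932), *Cdk20* (0.913) and *4930503L19Rik* (0.912). All 9 points share the 3 group means, so these values describe group patterns.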

How the data were processed

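RNA of whole lung from 9 mice was sequenced as read pairs by a company. The authors deposited 1 table with a raw count and an FPKM value per gene and mouse. The submitters' processing notes name Bowtie 0.12.2, HISAT2 2.0, StringTie 1.3.0 and mm10. The coordinates of the table are of another build, since 685 of 32643 genes matched by identifier to GENCODE M21 had the same start, so they were used only for distances. The counting tool, the annotation and the use of strand are not given in the sources used here. Some entries of the table (281) share a symbol with another.

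Counts were tested with edgeR 4.0.16 in R 4.3.3 (quasi-likelihood test, TMM scaling) on the 6 mice of each comparison, over genes with a mean of at least 0.5 FPKM, with Benjamini-Hochberg adjustment over all genes tested. Standard errors were the log2 fold change divided by the root of F. Intervals (95%) use the t distribution with the degrees of freedom of the edgeR fit. The test was tried on simulated counts. Replicate numbers were checked for pairing: deviations from the group means correlated at 0.31, 0.32 and 0.67 between same-numbered control and IL-33+LM8 mice. Mice of different numbers correlated as strongly, as IL-33 replicate 1 did with control replicate 3 (0.65) and with IL-33+LM8 replicate 3 (0.67). Each of these mice had the most reads of its group (66029783, 73869252 and 90607218 in that order). The part of sequencing depth in these correlations was not tested. The labels give no pairing, and these correlations cannot establish one. DESeq2 1.42.0, limma 3.58.1 on log2(FPKM + 1) or log2(FPKM + 0.1), other scalings and filters, 1 fit of all 9 mice and each mouse left out were the alternatives. Where leaving out 1 mouse left 2 in a group, that group still had a spread of its own.

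All 10 genes were named. Of each list the 2 most abundant and the 2 most changed genes were to be named, with other keratins that were tested and the 3 genes most correlated with each of 3 keratins; list genes beyond these were chosen after their values were seen. The values of 1 list gene are not reported here. The members and lists were chosen with earlier results of these data known. Nothing says that mice within a group came from separate experiments. The p-values thus set group differences against variation among these lungs only, which edgeR estimates with the help of all genes tested.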

Additional observations from a re-analysis of the deposited data

How the results depend on the processing

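The number of the 6 tested genes that passed was 4 in IL-33 against control, 2 in IL-33+LM8 against IL-33 and 3 in IL-33+LM8 against control. It became 1, 0 and 0 when at least 2-fold was also required. Without the filter it was 0 for LM8 against IL-33 and 1 for LM8 against control, and with scaling to general epithelial genes it was 0 for LM8 against IL-33. With each mouse left out it ranged from 2 to 4, from 0 to 2 and from 1 to 2. Same-numbered mice did not all deviate together between control and IL-33 (correlations -0.42, 0.28 and -0.28) or between IL-33 and IL-33+LM8 (-0.38, 0.22 and -0.40). Between control and IL-33+LM8 all 3 were over 0.1, but this was not limited to mice of the same number. Control replicate 1 with IL-33+LM8 replicate 2 was at 0.20, and control replicate 2 with IL-33+LM8 replicate 1 at 0.17. A block by number is thus an alternative fit and not a known pairing. With the number as a replicate block, 4, 0 and 4 genes passed, *Krt8* being gained for LM8 against control (-0.15, adjusted p = 0.0354), and *Krt8* (-0.25, adjusted p = 0.0736) and *Krt19* (-0.20, 0.0605) did not pass for LM8 against IL-33.

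The sign turned only in values that had not passed. For LM8 against IL-33, *Krt18* was 0.024 with scaling to general epithelial genes and 0.0058 without IL-33+LM8 replicate 3, *Krt15* was 0.0097 without IL-33+LM8 replicate 1, *Krt5* was -0.18 without the filter and with the replicate block, and *Krt17* was -0.42 without IL-33+LM8 replicate 2 and -0.072 when IL-33 replicate 1 was left out. With each mouse left out, *Krt18* ranged from -0.063 to 0.0058 and *Krt15* from -0.96 to 0.0097. For LM8 against control, *Sprr1a* was -0.0019 with DESeq2, -0.016 and -0.040 with limma at pseudocounts of 1 and 0.1, -0.0054 among genes of at least 1 FPKM, -0.030 with the replicate block, and -0.12, -0.15 and -0.11 without control replicate 2, IL-33+LM8 replicate 1 and IL-33+LM8 replicate 2 (range with each mouse left out -0.15 to 0.25). The cause of these changes was not tested. Of all alternative values of the 6 tested genes, 204 kept direction and side of the threshold, 48 no longer passed, 4 newly passed and 11 turned sign. Reads limit the 4 genes under the filter, with 0 to 150 counts per mouse.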

Other observations

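*Krt13*, a type I keratin of stratified and hillock-type epithelium, was chosen after its values were seen. It was counted 9, 19 and 22 times in control, 0 times in each IL-33 mouse and 18, 35 and 42 times in IL-33+LM8 mice. The IL-33 mice lay below all others, and in the fit without the filter the adjusted p was 0.0122 for IL-33 against control and 0.00766 for LM8 against IL-33. *Krt76*, a type II keratin of stratified epithelium chosen in the same way, was counted 0 times in each control, 14, 23 and 18 times in IL-33 mice and 0, 18 and 18 times in IL-33+LM8 mice (adjusted p = 0.00720 for IL-33 against control). As with *Krt5* and *Krt17*, IL-33+LM8 replicate 1 was the mouse at 0. *Dsc2*, a desmosomal cadherin under the filter, rose with IL-33 in that fit, by a log2 fold change of 1.04 (adjusted p = 0.0176).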
